A study of Homo sapiens with 10 samples.

Results

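A set of 49 genes that encode subunits of chromatin remodelling complexes and enzymes that write or erase chromatin marks was examined in MCF10A cells. The members were fixed by gene symbol: 17 subunits of the SWI/SNF complexes, 5 genes of Polycomb repressive complex PRC2, 6 of Polycomb repressive complex PRC1, 6 enzymes of DNA methylation, 4 histone acetyltransferases, 4 histone deacetylases, 4 histone demethylases and 3 remodellers of the CHD family. All 49 were listed once among the 26256 genes of the untreated count table and once among the 55736 genes of the Nutlin-3a count table. MCF10A is a line of human breast epithelial cells that divides without limit but does not form tumours, kept here in medium with horse serum, EGF, insulin, hydrocortisone and cholera toxin. In the first experiment 2 libraries of parental MCF10A cells were compared with 2 libraries of G12V cells, all untreated. G12V cells are MCF10A cells transduced with a lentiviral vector for HRas V12 (genotype label H-RAS Gv12) together with a GFP vector and selected with hygromycin, and they had resumed growth after an arrest. No empty-vector or selection step is stated for the parental cells, so the oncogene, the vector and the selection cannot be told apart. In the second experiment parental MCF10A cells received 10 µM Nutlin-3a, an inhibitor of the binding of MDM2 to p53, or the vehicle DMSO for 4 h, with 3 libraries each. The libraries were made from poly(A) RNA, and the labels call the libraries of a condition biological replicates.

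SWI/SNF complexes use the energy of ATP to slide or evict nucleosomes, and several of their subunit positions can be filled by one of several paralogous proteins. PRC2 methylates histone H3 at repressed genes, and canonical PRC1 binds that mark through a CBX protein and ubiquitinates histone H2A. DNA methyltransferases and TET enzymes, acetyltransferases and deacetylases, and histone methyltransferases and demethylases form opposed pairs of activities. SWI/SNF subunits and acetyltransferases are frequently mutated in carcinomas, among them those of the breast.

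Total counts ran from 21538593 to 23683975 per library in the untreated table and from 15453226 to 17378734 in the Nutlin-3a table. Levels are given in CPM, read counts divided by the TMM-scaled size of their library, and a log2 fold change is the estimate of edgeR's quasi-likelihood test. A gene was called differentially expressed (DE) at a Benjamini-Hochberg adjusted p under 0.05 together with an absolute log2 fold change above 0.5. HRAS itself read 72.6 and 65.9 CPM in MCF10A and 631 and 515 CPM in G12V. All 6 listed p53 targets were DE and higher with Nutlin-3a, among them CDKN1A with a log2 fold change of 2.16. Of 8 epithelial markers, 6 were DE and lower in G12V, and their summed level went from 6856 to 8415 CPM in MCF10A to 1363 to 1662 CPM in G12V. CDH1, which encodes E-cadherin, read 199.5 and 238.1 CPM in MCF10A and 0.428 and 0.535 CPM in G12V. Of 6 mesenchymal markers, 4 were DE and higher and 1 was DE and lower, and their summed level ran from 1665 to 2088 CPM in MCF10A and from 1632 to 2251 CPM in G12V. The 5 fibroblast markers summed to between 37.0 and 64.35 CPM in MCF10A and between 51.8 and 57.98 CPM in G12V. Nearly all of that came from DCN, at 25.3 to 58.3 CPM, and COL1A1, at 3.25 to 11.5 CPM, neither of them DE, while COL3A1 had no count in the 4 libraries and COL1A2 and PDGFRA were near 0. In bulk RNA, a smaller share of cells of one kind and less RNA per cell cannot be told apart, and the part of these markers in the results that follow was not tested.

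In G12V cells 2 of the 49 genes were DE. ARID1B, a DNA-binding subunit of the SWI/SNF complexes of the BAF type, was lower, and KAT2B, a histone acetyltransferase also known as PCAF, was higher. The share of 4.08% stood beside 11.0% of the 14376 genes tested (5.01% higher, 5.95% lower), and beside 9.48% of genes with a mean of at least 10 CPM, a bound chosen after the data were seen. DESeq2 and edgeR's exact test each called 4 members, these 2 with SMARCD3 and CBX2, beside 16.0% and 17.6% of all genes. An unadjusted p under 0.05 was reached by 6 of the 49 genes, 4 higher and 2 lower, where 25.6% of all tested genes reached it. The libraries of the groups did not overlap for 26 of the 49 genes, 53.1%, beside 54.8% of all genes. The median absolute log2 fold change was 0.24 over the 49 genes, 0.355 over all genes and 0.294 over genes of at least 10 CPM. For 37 of the 49 genes the estimate lay within 0.5 of 0 on the log2 scale. For 33 of the 49, 67.3%, the 95% interval excluded a change of 2-fold in either direction. This held for 42.4% of all tested genes and for 59.6% of those of at least 10 CPM. The plot of fold changes shows all 49 genes with their intervals.

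**Figure D1:**
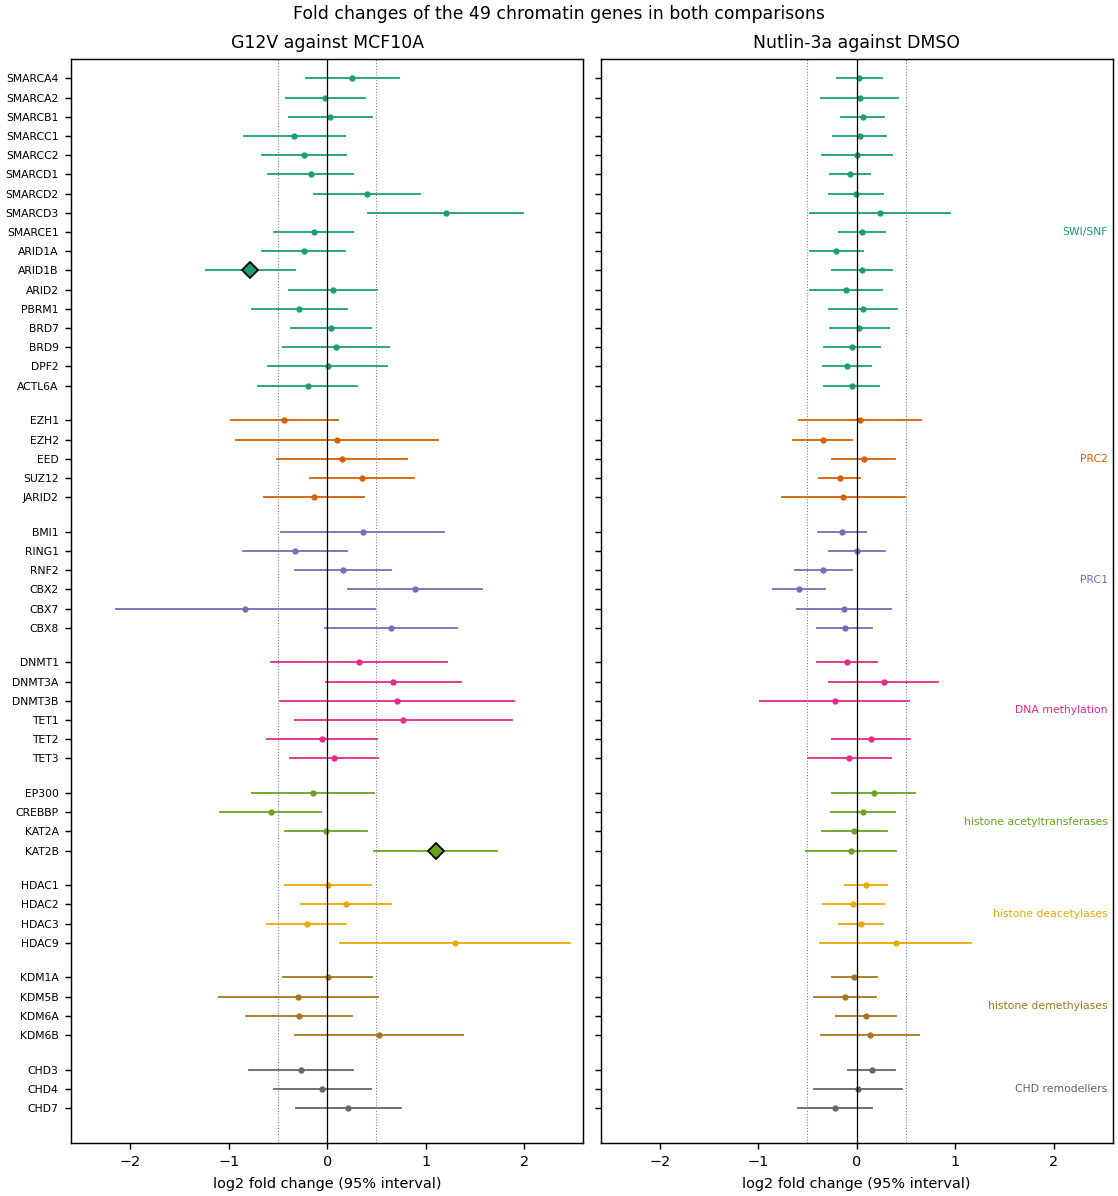
Log2 fold changes of the 49 chromatin genes, by complex or activity, for G12V against MCF10A (left) and Nutlin-3a against DMSO (right). Points are estimates of edgeR's quasi-likelihood test, lines are 95% intervals, dotted lines mark the fold threshold of 0.5, and diamonds mark DE genes. The 2 diamonds are ARID1B at -0.78 and KAT2B at 1.10, both in the left panel, and intervals are narrower on the right. TET1 was not tested in the Nutlin-3a experiment and has no point there.

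Among the SWI/SNF subunits, 1 of 17 was DE. ARID1B read 113.7 and 139.2 CPM in the MCF10A libraries and 72.4 and 74.5 CPM in the G12V libraries. Both G12V libraries lay below both MCF10A libraries. The log2 fold change was -0.78 (SE 0.18, edgeR adjusted p = 0.0496), a level 0.581 times that of MCF10A. Its paralogue ARID1A, which fills the same position in the complex, read 118.5 and 128.4 CPM in MCF10A and 109.1 and 99.95 CPM in G12V (log2 fold change -0.24, interval -0.66 to 0.18). The adjusted p of ARID1B lay just under the threshold. It was 0.051 with RLE size factors and 0.0686 without the low-count filter. With a library left out, the log2 fold change of ARID1B ran from -0.90 to -0.63. Such a fit has 1 library in a group, so it cannot show whether the call rested on any particular library. DESeq2 and edgeR's exact test also called ARID1B lower.

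The SMARCD position is filled by SMARCD1, SMARCD2 or SMARCD3, the BAF60 subunits that link the complex to transcription factors. SMARCD3 read 6.54 and 9.16 CPM in MCF10A and 14.6 and 21.6 CPM in G12V. The groups did not overlap. The log2 fold change was 1.20 (SE 0.32), and the quasi-likelihood test gave SMARCD3 an adjusted p of 0.0699, above the threshold. DESeq2 and edgeR's exact test both gave SMARCD3 an adjusted p of 0.0124 and called it higher, and library totals without further scaling did so at 0.0476. Over all alternatives its adjusted p ran from 0.000802 to 0.305. SMARCD2 read 133.4 and 173.4 CPM in MCF10A and 183.4 and 221.8 CPM in G12V (log2 fold change 0.40, adjusted p = 0.326, from 0.24 to 0.60 with a library left out). SMARCD1 read 91.9 and 94.5 CPM in MCF10A and 89.8 and 75.9 CPM in G12V (log2 fold change -0.17, interval -0.60 to 0.27).

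The remaining SWI/SNF genes had estimates between -0.34 and 0.25 and none had an unadjusted p under 0.05. They include the alternative ATPases SMARCA4 (BRG1) and SMARCA2 (BRM). SMARCA4 averaged 206.8 ± 25.1 CPM in MCF10A and 246.7 ± 7.55 CPM in G12V (SD, n = 2 each; log2 fold change 0.25, interval -0.22 to 0.73). SMARCA2 averaged 75.6 ± 0.597 CPM and 74.5 ± 1.42 CPM (log2 fold change -0.02, interval -0.42 to 0.38). Of the core subunits, SMARCB1 had a log2 fold change of 0.03 and SMARCE1 one of -0.14. The scaffold paralogues SMARCC1 and SMARCC2 had values of -0.34 and -0.24, with adjusted p = 0.394 and 0.478. ARID2, PBRM1 and BRD7, subunits of the PBAF form, had values of 0.06, -0.28 and 0.04. BRD9, a bromodomain subunit of the noncanonical form, had a value of 0.09, the histone reader DPF2 one of 0.00 and the actin-related ACTL6A one of -0.20. For 15 of the 17 SWI/SNF genes the 95% interval excluded a change of 2-fold.

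The starts of the DE genes are shown because they are the regulatory DNA next to the members that passed the threshold. In the untreated table, ARID1B spans bases 157099064 to 157531913 of chromosome 6 and KAT2B spans bases 20081524 to 20195896 of chromosome 3 (hg19, both on the plus strand). The 250 bases before each annotated start are from RefSeq on GRCh38.p14, plus strand, 5′ to 3′. RefSeq gives 1 start for KAT2B, at chr3:20040196-20040445, and 2 for ARID1B, at chr6:156775776-156776025 (start 1) and chr6:156777128-156777377 (start 2). Capitals mark the GC box GGGCGG, a short element bound by SP family factors, searched on both strands.
KAT2B: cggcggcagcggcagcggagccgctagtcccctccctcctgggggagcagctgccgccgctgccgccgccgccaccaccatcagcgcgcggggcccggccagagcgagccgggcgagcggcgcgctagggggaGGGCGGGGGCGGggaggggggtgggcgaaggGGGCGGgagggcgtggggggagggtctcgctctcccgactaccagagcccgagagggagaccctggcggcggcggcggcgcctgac
ARID1B start 1: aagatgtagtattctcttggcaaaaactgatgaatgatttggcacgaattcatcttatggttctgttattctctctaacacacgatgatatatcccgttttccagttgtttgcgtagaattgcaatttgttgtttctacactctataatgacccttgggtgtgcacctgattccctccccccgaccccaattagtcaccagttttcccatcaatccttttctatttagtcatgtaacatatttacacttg
ARID1B start 2: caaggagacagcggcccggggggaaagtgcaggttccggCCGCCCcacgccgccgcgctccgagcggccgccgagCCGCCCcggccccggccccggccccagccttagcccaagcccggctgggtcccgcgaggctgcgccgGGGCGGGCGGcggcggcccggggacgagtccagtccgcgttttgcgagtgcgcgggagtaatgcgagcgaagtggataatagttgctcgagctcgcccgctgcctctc

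The KAT2B stretch held 33 CpG dinucleotides and 3 GC boxes, and the ARID1B stretches held 5 and 37 CpG dinucleotides with 0 and 4 GC boxes. The ARID1B starts thus differ in base composition, with 38.8% and 76.0% G and C. The gene counts do not say which start was used. Neither the AP-1 motif TGANTCA, the E2F motif TTCCCGCC nor the cell-cycle motif TTTGAA occurred in the 3 stretches on either strand. Of 35116 RefSeq promoters of this length, 42.6% held a GC box, 6.57% the AP-1 motif, 2.72% the E2F motif and 13.3% the cell-cycle motif. RefSeq promoters were matched for 42 of the 49 genes, 71 promoters in all, and those held a median of 25 CpG dinucleotides where all promoters held 11. ACTL6A, ARID2, CBX2, CBX8, CHD7, SMARCC1 and SMARCC2 were not matched.

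Of the 5 PRC2 genes, 0 were DE by edgeR's quasi-likelihood test, DESeq2 or edgeR's exact test, and 0 had an unadjusted p under 0.05. EZH2, the main methyltransferase, read 44.7 and 27.1 CPM in MCF10A and 52.5 and 24.4 CPM in G12V. Each group held a high and a low library, and the estimate of 0.10 had an interval from -0.93 to 1.13. EZH1, the alternative methyltransferase, read 24.3 and 25.2 CPM in MCF10A and 16.6 and 20.0 CPM in G12V (log2 fold change -0.44, adjusted p = 0.291). SUZ12 and EED, which every PRC2 complex needs, had values of 0.35 and 0.15, and the recruiting cofactor JARID2 had a value of -0.13.

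Of the 6 PRC1 genes, 0 were DE by the quasi-likelihood test and 1 had an unadjusted p under 0.05. That gene, CBX2, was called higher by DESeq2 and by edgeR's exact test. CBX2, a reader of the PRC2 mark that also compacts nucleosomes, read 18.3 and 17.7 CPM in MCF10A and 40.8 and 25.9 CPM in G12V. The groups did not overlap, and the G12V libraries differed more from each other than the MCF10A libraries did. The log2 fold change was 0.89 (SE 0.28), with an adjusted p of 0.104 by the quasi-likelihood test, 0.0485 by DESeq2 and 0.0468 by the exact test, and from 0.00439 to 0.357 over all alternatives. The log2 fold change of CBX2 was 0.52 without G12V replicate 1, its high library. CBX8, its neighbour on chromosome 17, read 6.32 and 7.05 CPM in MCF10A and 11.2 and 9.72 CPM in G12V (log2 fold change 0.65, adjusted p = 0.211). CBX7, another reader of the same mark, read 6.50 and 13.8 CPM in MCF10A and 3.42 and 7.98 CPM in G12V (log2 fold change -0.83, adjusted p = 0.412). The CBX7 groups overlapped, and its log2 fold change moved from -0.19 without MCF10A replicate 2 to -1.57 without G12V replicate 2. The ubiquitin ligases RING1 and RNF2 had values of -0.33 and 0.16.

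BMI1, the partner of the PRC1 ligases, read from 3.82 to 6.16 CPM in the untreated table (log2 fold change 0.36) and from 50.9 to 62.45 CPM in the Nutlin-3a table. Both tables list a read-through gene, COMMD3-BMI1, that overlaps it on the same strand and had no count in any library. How reads shared by overlapping genes were counted is not stated, so the BMI1 level is uncertain, and the tables, normalized separately and on different annotations, were not compared for it. DERL3 lies opposite SMARCB1 in both tables, and antisense genes lie opposite TET2 and JARID2. The strand setting of the counting is not stated for these reads, so reads of such pairs may be mixed.

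**Figure D2:**
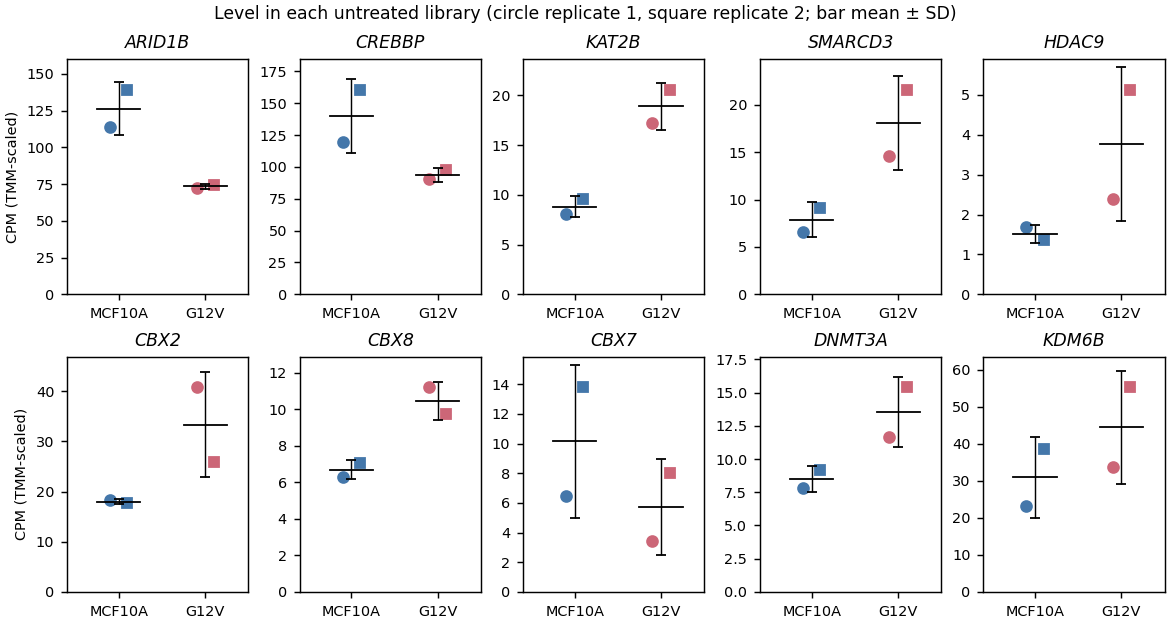
Level in CPM on a linear axis of 10 chromatin genes in each untreated library, MCF10A in blue and G12V in red, circles for replicate 1 and squares for replicate 2, with the mean ± SD (n = 2). ARID1B and CREBBP lie lower in both G12V libraries. KAT2B, SMARCD3, HDAC9, CBX2, CBX8 and DNMT3A lie higher in both, and CBX7 and KDM6B overlap. Of the 10 genes, ARID1B and KAT2B were DE.

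Of the 6 genes of DNA methylation, 0 were DE by the quasi-likelihood test, DESeq2 or the exact test, and 0 had an unadjusted p under 0.05. DNMT1, the maintenance methyltransferase, read 210.3 and 120.6 CPM in MCF10A and 261.0 and 152.2 CPM in G12V (log2 fold change 0.32, interval -0.57 to 1.21). The de novo methyltransferase DNMT3A read 7.82 and 9.16 CPM in MCF10A and 11.7 and 15.4 CPM in G12V (log2 fold change 0.67, adjusted p = 0.204). DNMT3A did not overlap between the groups. DNMT3B, the other de novo enzyme, read 4.23 and 2.11 CPM in MCF10A and 6.67 and 3.70 CPM in G12V (log2 fold change 0.71, adjusted p = 0.44). TET1, the lowest of the 49 genes per kilobase of transcript, read 0.864 and 0.749 CPM in MCF10A and 1.03 and 1.74 CPM in G12V. TET2 and TET3, the other TET dioxygenases, had log2 fold changes of -0.05 and 0.07, with intervals from -0.61 to 0.50 and from -0.38 to 0.52.

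Of the 4 histone acetyltransferases, 1 was DE. KAT2B read 8.04 and 9.56 CPM in MCF10A and 17.2 and 20.6 CPM in G12V. Both G12V libraries lay above both MCF10A libraries. The log2 fold change was 1.10 (SE 0.25, edgeR adjusted p = 0.0469), a level 2.15 times that of MCF10A. Its paralogue KAT2A, also known as GCN5, read 98.5 and 92.1 CPM in MCF10A and 98.4 and 90.5 CPM in G12V (log2 fold change -0.01, interval -0.43 to 0.40). KAT2B was called higher by all 3 tools. It was not DE without the low-count filter (edgeR adjusted p = 0.0552). With a library left out, which leaves 1 library in a group, its log2 fold change ran from 0.97 to 1.23. CREBBP and EP300 encode the paralogous coactivators CBP and p300. CREBBP read 119.3 and 160.5 CPM in MCF10A and 90.1 and 97.9 CPM in G12V (log2 fold change -0.57, unadjusted p = 0.0337, edgeR adjusted p = 0.153). EP300 read 24.1 and 35.4 CPM in MCF10A and 27.8 and 26.1 CPM in G12V (log2 fold change -0.15, interval -0.77 to 0.47). The CREBBP groups did not overlap and the EP300 groups did. Without MCF10A replicate 2 the log2 fold change of CREBBP was -0.35.

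Of the 4 histone deacetylases, 0 were DE by the quasi-likelihood test, DESeq2 or the exact test, and 1 had an unadjusted p under 0.05. HDAC9, a class IIa deacetylase, read 1.68 and 1.36 CPM in MCF10A and 2.39 and 5.13 CPM in G12V (log2 fold change 1.30, adjusted p = 0.156). G12V replicate 2 was the high library: without it the log2 fold change was 0.65, and without G12V replicate 1 it was 1.75 with an adjusted p of 0.0285. The class I deacetylases HDAC1, HDAC2 and HDAC3, the catalytic subunits of the NuRD, SIN3 and NCoR corepressor complexes, had values of 0.01, 0.19 and -0.21. HDAC3 read 102.5 and 106.6 CPM in MCF10A and 90.9 and 90.1 CPM in G12V. The intervals of all 3 class I genes excluded a change of 2-fold.

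Of the 4 histone demethylases and the 3 CHD remodellers, 0 were DE by the quasi-likelihood test, DESeq2 or the exact test, and 0 had an unadjusted p under 0.05. KDM6B, which removes the PRC2 mark and is inducible by many stimuli, read 23.2 and 38.7 CPM in MCF10A and 33.7 and 55.3 CPM in G12V (log2 fold change 0.52, adjusted p = 0.428). KDM6A, its paralogue on chromosome X, read 39.2 and 45.8 CPM in MCF10A and 30.8 and 39.1 CPM in G12V (log2 fold change -0.28, adjusted p = 0.501). The KDM6B groups overlapped, and its log2 fold change moved from 0.12 without G12V replicate 2 to 0.94 without MCF10A replicate 2. Both G12V libraries lay below both MCF10A libraries for KDM6A. KDM1A, also known as LSD1, had a value of 0.00 (interval -0.45 to 0.46). KDM5B, a demethylase of active promoters, had a value of -0.29 (interval -1.10 to 0.51). CHD3 and CHD4, the alternative ATPases of the NuRD complex, had values of -0.27 and -0.05, and CHD7 had a value of 0.22. CHD4 read 363.4 and 420.4 CPM in MCF10A and 372.4 and 384.7 CPM in G12V, and the groups overlapped.

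Ratios of paralogues, alternative subunits or enzymes of the same activity within each library do not depend on library scaling, and 17 such pairs were compared. In G12V against MCF10A, 11 of the 17 ratios did not overlap between the groups and for 8 of them the mean log2 ratio differed by over 0.5. Single genes did not overlap in 54.8% of those tested, and the rate for ratios of other gene pairs was not computed. With 2 libraries against 2 the exact two-sided permutation test cannot give less than p = 0.33, and the lowest adjusted p over the 17 pairs was 0.515. Per transcript length, KAT2B made up 6.16% of the sum of KAT2A and KAT2B in MCF10A and 12.4% in G12V. ARID1B made up 46.0% of the sum of ARID1A and ARID1B in MCF10A and 37.0% in G12V. SMARCD3 made up 12.6% of the sum of SMARCD1 and SMARCD3 in MCF10A and 27.4% in G12V. CBX7 made up 56.2% of the sum of CBX7 and CBX8 in MCF10A, with libraries at 48.4% and 64.1%, and 32.4% in G12V, with libraries at 21.9% and 42.8%. SMARCA2 made up 26.3% of the sum of the SWI/SNF ATPases in MCF10A and 22.7% in G12V. KDM6B made up 39.1% of the sum of KDM6A and KDM6B in MCF10A and 53% in G12V. These shares use the length of 1 annotated transcript per gene.

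For each member, the log2 fold changes of the other tested genes starting within 2 Mb were also read, a window chosen after the data were seen. Of 46 members with at least 5 such neighbours, 3 had a neighbour median above 0.5, and all 3 lie on the long arm of chromosome 17. SMARCD2 had 39 neighbours with a median log2 fold change of 0.56, 35 of them above 0. CBX2 and CBX8, whose windows are nearly the same, had 59 neighbours each with a median of 0.62, 47 of them above 0. The other 43 members had neighbour medians from -0.22 to 0.26, and the median of all tested genes was -0.00. Less its neighbour median, the log2 fold change was 0.27 for CBX2, 0.03 for CBX8 and -0.16 for SMARCD2. ARID1B, with 11 neighbours at a median of -0.06, and SMARCD3, with 39 at 0.01, kept log2 differences of -0.72 and 1.19. KAT2B had 3 neighbours. The part of the chromosomal position in the CBX2, CBX8 and SMARCD2 values was not tested.

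**Figure D3:**
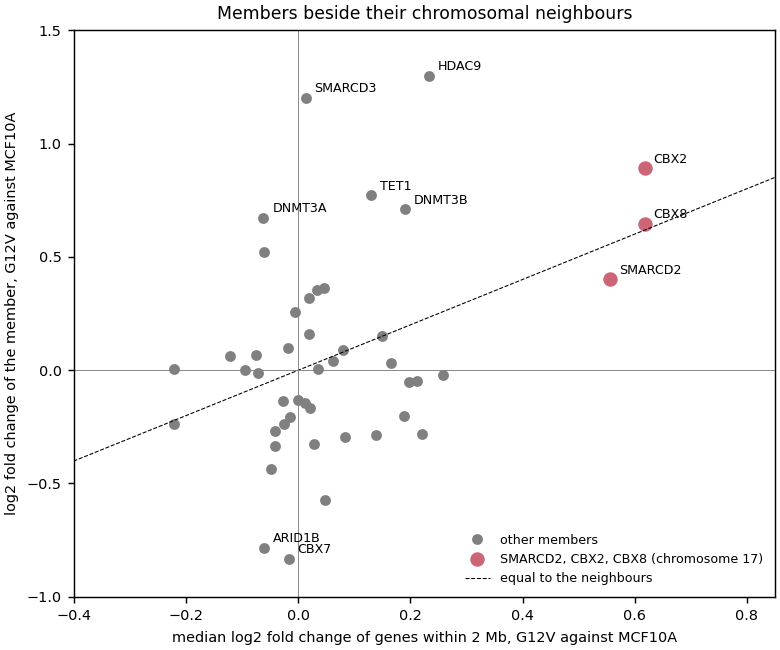
Log2 fold change of each of 46 members (y axis) against the median log2 fold change of the other tested genes starting within 2 Mb (x axis), G12V against MCF10A. The dashed line marks equality. SMARCD2, CBX2 and CBX8, in red, sit at neighbour medians of 0.56 and 0.62, apart from the other members, which lie between -0.22 and 0.26.

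Some members differed between the untreated libraries in the same direction within both groups. The log2 ratio of replicate 1 to replicate 2 was beyond 0.5 with the same sign in both groups for 6 of the 49 genes, a count made after the data were seen. The share of all genes that met this limit was not computed, so the count has no background. DNMT1, EZH2 and DNMT3B were higher in replicate 1 of both groups, with log2 ratios of 0.80 and 0.78, of 0.72 and 1.11 and of 1.00 and 0.85 in MCF10A and G12V. KDM5B, KDM6B and CBX7 were lower in replicate 1 of both groups, with log2 ratios of -0.60 and -0.77, of -0.74 and -0.71 and of -1.08 and -1.22. All 10 proliferation markers were higher in replicate 1 of both groups. Their summed level ran from 1335 to 2138 CPM in MCF10A and from 1176 to 2295 CPM in G12V, and 0 of the 10 were DE between the groups by the quasi-likelihood test. The part of proliferation in the values of these 6 genes was not tested. With the replicate number as a term in the fit, 9 of the 49 genes were DE, beside 28.9% of all genes: ARID1B and KAT2B as before, CBX7 and CREBBP lower, and SMARCD3, CBX2, DNMT3A, HDAC9 and KDM6B higher. The labels do not say that the numbers pair these libraries.

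**Figure D4:**
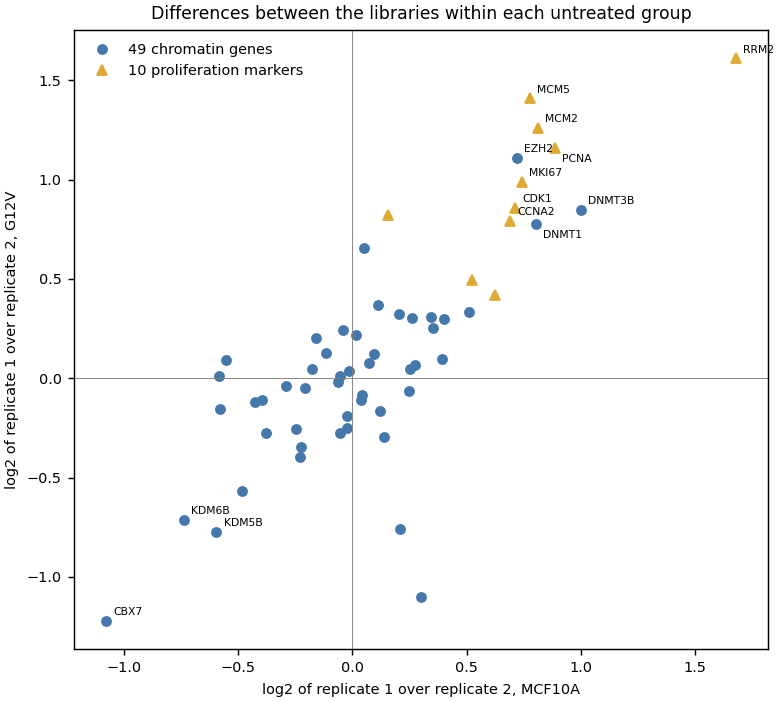
Log2 ratio of replicate 1 to replicate 2 in MCF10A (x axis) and in G12V (y axis) for the 49 chromatin genes (circles) and 10 proliferation markers (triangles). Genes beyond 0.5 with the same sign on both axes are named. DNMT1, EZH2 and DNMT3B lie with the proliferation markers at the upper right, and CBX7, KDM5B and KDM6B lie at the lower left.

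A wider list of 124 other genes of the same complexes and activities was read from the same fit. Of 120 tested in G12V against MCF10A, 6 were DE, a share of 5.0% beside the 11.0% of all genes. SMARCA1, the ATPase SNF2L of the ISWI family, read 12.4 and 13.7 CPM in MCF10A and 36.2 and 42.6 CPM in G12V (log2 fold change 1.60, adjusted p = 0.00965). CBX6, a PRC1 subunit, read 50.9 and 43.96 CPM in MCF10A and 122.4 and 101.2 CPM in G12V (log2 fold change 1.24, adjusted p = 0.0141). UHRF2, a reader of modified DNA, read 54.1 and 63.7 CPM in MCF10A and 109.8 and 134.5 CPM in G12V (log2 fold change 1.05, adjusted p = 0.0247). These 3 were the DE genes that were higher.

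BCL11A and BCL11B, zinc-finger subunits of SWI/SNF, were DE and lower. BCL11A read 10.2 and 18.6 CPM in MCF10A and 1.24 and 2.68 CPM in G12V (log2 fold change -2.88, adjusted p = 0.0201). BCL11B read 2.91 and 2.47 CPM in MCF10A and 0.428 and 0.535 CPM in G12V (log2 fold change -2.47, adjusted p = 0.0166). PCGF3, a subunit of noncanonical PRC1, read 68.6 and 64.7 CPM in MCF10A and 29.5 and 26.0 CPM in G12V (log2 fold change -1.27, adjusted p = 0.012). The 42 neighbours of PCGF3 on chromosome 4 had a median of -0.89, and the 19 neighbours of UHRF2 on chromosome 9 a median of 0.60. Without MCF10A replicate 1 none of the 6 was DE, nor was any other gene in the table, and without G12V replicate 2 UHRF2 was not DE (adjusted p = 0.0582).

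The second comparison asked how the same 49 genes stood after p53 had been stabilized with Nutlin-3a for 4 h. Of 48 genes tested, 0 were DE by edgeR's quasi-likelihood test, beside 0.17% of the 13529 genes tested. Unless the fit with the replicate number is named, the p-values and intervals of this comparison come from unpaired tests. Same-numbered libraries deviated together here (correlations from 0.603 to 0.639), so those tests left a pairing unused. The fit with the replicate number called 165 of all genes, where the unpaired fit called 23. TET1, at 0.186 to 0.875 CPM, did not pass the low-count filter. An unadjusted p under 0.05 was reached by 3 of the 48 genes, beside 3.42% of all genes, and all 3 were Polycomb genes with lower estimates: CBX2, EZH2 and RNF2. Of all 13529 tested genes, 247 reached it with a lower and 216 with a higher estimate. DESeq2, edgeR's exact test and the fit with the replicate number as a term each called 1 member, CBX2, where they called 0.651%, 0.621% and 1.22% of all genes. The 95% interval excluded a change of 2-fold for 47 of the 48 genes, 97.9%, beside 85.3% of all genes. Among genes with a mean of at least 10 CPM that share was 97.3%, near that of the members. For 33 of the 48 the interval also excluded a log2 change of 0.5, as for 6472 of the 9267 genes of at least 10 CPM. The median absolute log2 fold change was 0.0826 over the members, 0.101 over all genes and 0.0808 over genes of at least 10 CPM.

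CBX2 read 23.3, 25.8 and 23.8 CPM with DMSO and 16.5, 16.4 and 15.7 CPM with Nutlin-3a. All 3 treated libraries lay below all 3 controls. The log2 fold change was -0.58 (SE 0.12, interval -0.85 to -0.32), a level 0.667 times that of DMSO. Its adjusted p was 0.225 by the quasi-likelihood test, 0.0148 by DESeq2, 0.0445 by the exact test and 0.0093 in the blocked fit, and with a library left out it ran from 0.424 to 1.0. The neighbours of CBX2 within 2 Mb, 49 genes, had a median of -0.00 in this comparison. CBX8 read 18.25, 18.04 and 17.3 CPM with DMSO and 15.5, 16.99 and 16.9 CPM with Nutlin-3a (log2 fold change -0.12, interval -0.40 to 0.16). The CBX8 groups did not overlap either, and the interval covered 0.

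EZH2 and RNF2 were singled out after their values were seen. EZH2 read 57.3, 57.3 and 51.3 CPM with DMSO and 47.4, 47.0 and 36.1 CPM with Nutlin-3a (log2 fold change -0.35, unadjusted p = 0.0299, edgeR adjusted p above 0.99 in the unblocked fit and 0.0661 with the block). RNF2 read 28.3, 31.8 and 32.0 CPM with DMSO and 21.5, 24.8 and 26.6 CPM with Nutlin-3a (log2 fold change -0.34, unadjusted p = 0.0272, edgeR adjusted p of 0.0984 with the block). Neither gene overlapped between the groups, and neither was DE in any of 12 alternatives. SUZ12 read 100.3, 102.7 and 103.6 CPM with DMSO and 90.0, 95.1 and 87.4 CPM with Nutlin-3a (log2 fold change -0.17, interval -0.38 to 0.04). BMI1, JARID2 and CBX7 had values of -0.15, -0.13 and -0.13, and EED, EZH1 and RING1 had values of 0.07, 0.04 and 0.01. The groups did not overlap for 7 of the 48 tested members, 14.6%, beside 8.07% of all genes. Of those 7, 6 were lower with Nutlin-3a and 5 of the 6 were Polycomb genes, a count made after the values were seen. Of all 13529 tested genes, 592 were lower and 500 higher without overlap. In the wider list of other chromatin genes, 2 of 7 PRC2 genes (28.6%) and 2 of 17 PRC1 genes (11.8%) did not overlap, all lower. There, 0 of the PRC2 genes and 1 of the PRC1 genes had an unadjusted p under 0.05 by the quasi-likelihood test. Summed proliferation markers ran from 2318 to 2602 CPM with DMSO and from 1994 to 2313 CPM with Nutlin-3a, so these sums did not overlap either. MCM2, CCNA2, RRM2 and BUB1 were each lower in all 3 treated libraries than in any control, and PCNA was higher. MKI67, TOP2A, MCM5, CCNB1 and CDK1 overlapped. CCNA2 had a log2 fold change of -0.51 and RRM2 one of -0.38, and 0 of the 10 markers were DE. The part of proliferation in the Polycomb values was not tested.

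**Figure D5:**
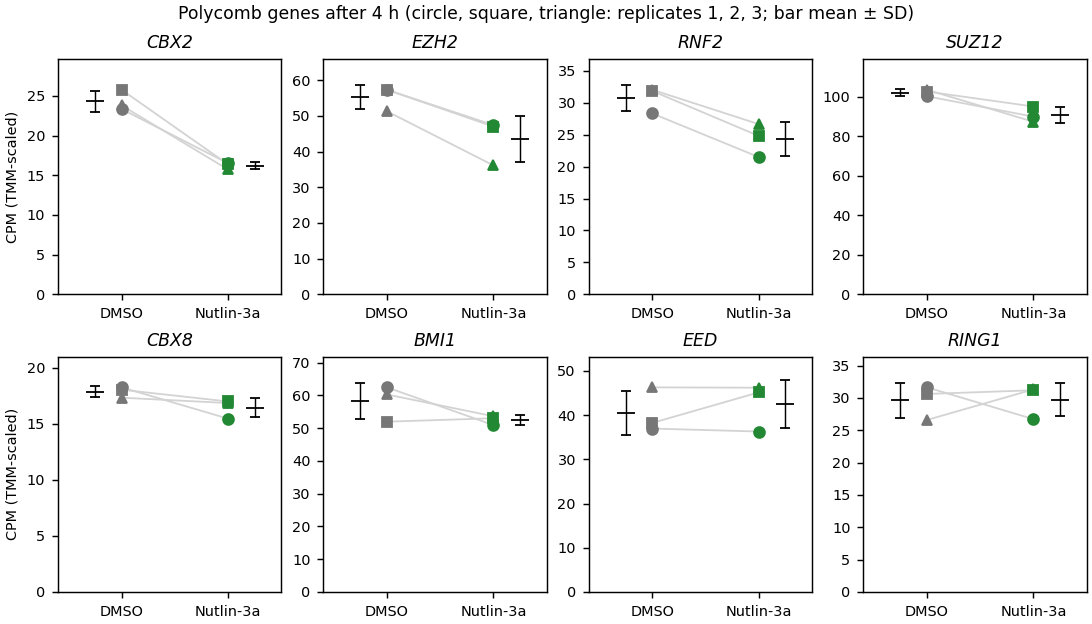
Level in CPM on a linear axis of 8 Polycomb genes after 4 h with DMSO (grey) or Nutlin-3a (green). Symbols mark replicates 1 to 3, lines join libraries with the same number, and bars give the mean ± SD (n = 3). CBX2, EZH2, RNF2, SUZ12 and CBX8 lie lower in all 3 treated libraries than in any control, and BMI1, EED and RING1 overlap.

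Outside the Polycomb genes no tested member was DE by edgeR's quasi-likelihood test, DESeq2 or the exact test, and none had an unadjusted p under 0.05. All 17 SWI/SNF genes had intervals that excluded a change of 2-fold, with estimates from -0.21 for ARID1A to 0.24 for SMARCD3. ARID1B read 87.8, 91.5 and 89.3 CPM with DMSO and 112.1, 85.3 and 82.3 CPM with Nutlin-3a (log2 fold change 0.06, interval -0.25 to 0.36). KAT2B read 12.1, 9.26 and 10.9 CPM with DMSO and 12.6, 8.31 and 10.2 CPM with Nutlin-3a (log2 fold change -0.06, interval -0.51 to 0.40). HDAC1 was the only member higher in all 3 treated libraries than in any control, with 155.6, 157.1 and 146.0 CPM with DMSO and 161.9, 171.0 and 157.5 CPM with Nutlin-3a (log2 fold change 0.10, interval -0.12 to 0.31). HDAC9 had the widest interval of the 48, from -0.37 to 1.17, at 2.68 to 6.71 CPM.

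The acetyltransferases CREBBP and EP300 had log2 fold changes of 0.07 and 0.17, and the demethylases KDM5B and KDM6B values of -0.12 and 0.14. DNMT1 averaged 221.3 ± 24.6 CPM with DMSO and 206.7 ± 25.3 CPM with Nutlin-3a (SD, n = 3 each; log2 fold change -0.10, interval -0.40 to 0.20). DNMT3A, DNMT3B, TET2 and TET3 had values of 0.28, -0.22, 0.14 and -0.07. CHD3, CHD4 and CHD7 had values of 0.15, 0.01 and -0.22. Of the 17 pair ratios, 1 did not overlap between DMSO and Nutlin-3a, where single genes did not overlap in 8.07% of those tested. The rate for ratios of other gene pairs was not computed. That 1 ratio was CBX2 to CBX8, with a mean log2 ratio of 0.44 with DMSO and -0.02 with Nutlin-3a. The exact two-sided permutation test gave p = 0.1, the smallest that 3 libraries against 3 allow, and 0.85 after adjustment over the 17 pairs.

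Of 120 other chromatin genes tested with Nutlin-3a, 0 were DE by the quasi-likelihood test, DESeq2 or the exact test, and 6 had an unadjusted p under 0.05, 4 lower and 2 higher. The fit with the replicate block called 1, the PRC1 subunit BCOR, singled out here after its values were seen. BCOR read 21.5, 24.1 and 21 CPM with DMSO and 17.1, 14.5 and 13.2 CPM with Nutlin-3a (log2 fold change -0.57, edgeR adjusted p of 0.474 and, with the block, 0.0204). All 3 treated libraries lay below all 3 controls. UHRF1, a cofactor of DNMT1 and likewise chosen after its values were seen, read 65.9, 71.2 and 66.9 CPM with DMSO and 53.95, 48.99 and 52.1 CPM with Nutlin-3a (log2 fold change -0.40, edgeR adjusted p of 0.423 and 0.0323 with the block). With the block the adjusted p of UHRF1 passed the threshold and its fold change did not.

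The parental levels in the Nutlin-3a experiment stand beside those of the untreated table, with the limit that the tables were made on different annotations and normalized separately. KAT2B ran from 9.26 to 12.1 CPM with DMSO, where MCF10A libraries had 8.04 and 9.56 and G12V libraries 17.2 and 20.6. SMARCD3 ran from 4.76 to 7.85 CPM with DMSO, below both G12V values of 14.6 and 21.6. ARID1B ran from 87.8 to 91.5 CPM with DMSO, between the MCF10A values of 113.7 and 139.2 and the G12V values of 72.4 and 74.5. HDAC9 ran from 2.68 to 4.87 CPM with DMSO, within the range of the G12V values of 2.39 and 5.13. CBX8 ran from 17.3 to 18.25 CPM with DMSO, above both G12V values of 11.2 and 9.72. KDM6B ran from 39.7 to 59.0 CPM with DMSO, where MCF10A libraries had 23.2 and 38.7 and G12V libraries 33.7 and 55.3. No test was made across the tables.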

How the data were processed

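RNA-seq of poly(A) RNA was measured in 4 untreated libraries (MCF10A and G12V) and 6 treated libraries (DMSO and Nutlin-3a). The deposited values are raw read counts per gene, which the authors made with TopHat and HTSeq on hg19. The annotation, the strand setting and the treatment of overlapping genes are not given in the sources used here. The tables list different gene sets and were analysed separately. Total counts ran from 15453226 to 23683975 per library.

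Genes were filtered with filterByExpr, scaled by TMM and tested over all genes with the quasi-likelihood test of edgeR 4.0.16 (R 4.3.3, Benjamini-Hochberg adjustment, prior count 0.125). SEs were taken from the fold change and the F statistic. Pair ratios used a pseudocount of 0.5 counts and exact permutation tests (SciPy 1.17.1). DESeq2 1.42.0, edgeR's exact test, other scalings, no filter, a replicate block and leaving out each library were the alternatives. The scripts were tested on simulated data. Transcript lengths were the canonical ones of GENCODE v44lift37 on GRCh37.

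The members, gene lists and pairs were chosen with earlier results of these data known. All members are named, with values per library for those DE in a fit, by another tool or with the block, and for their partners in a pair. Values per library of other genes were chosen after they were seen. Of the other chromatin genes, at most the 12 DE genes with the largest change were to be named. Replicate numbers come from the labels. In the Nutlin-3a experiment, same-numbered libraries deviated together from their group means (correlations of 0.624, 0.603 and 0.639, others -0.474 to -0.191), so the numbers pair those libraries. The main fit and the permutation tests did not use this pairing, and the replicate block, given as an alternative, did. The p-values of the fits compare a difference between groups with the variation between these libraries, estimated with information shared across genes.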

Additional observations from a re-analysis of the deposited data

How the results depend on the processing

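In G12V against MCF10A, 2 of the 49 genes were DE as reported. DESeq2 and edgeR's exact test each called 4, RLE size factors 1 and no low-count filter 0, while library totals alone called 3. In this comparison a fit with a library left out has 1 library in a group. A call lost there does not show that it depended on that library. With a library left out the count ran from 0 to 3, and without MCF10A replicate 1 no gene of the table was DE. Of the other chromatin genes 6 were DE as reported, 12 by DESeq2, 14 by the exact test and 0 to 10 with a library left out. The replicate block called 9 members and 26 other chromatin genes, and 4158 genes in all in place of 1575. Same-numbered untreated libraries had a correlation of 0.494, which with 2 pairs mirrors the -0.494 of the other pairing by construction, and these numbers were not taken as pairs. Pair ratios that changed by more than 0.5 ran from 8 to 9 with a library left out. In Nutlin-3a against DMSO, DESeq2, the exact test and the replicate block each called 1 member, and with any library left out 0 were called. The block called 1 of the other chromatin genes and changed no other call of the members. Pair ratios there ran from 0 to 4 with a library left out.

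Of 190 alternative values of 19 genes named in G12V against MCF10A, 154 kept their direction and call, 17 lost the call, 15 gained it and 4 changed sign. The sign changes were those of EZH2 (-0.22 without MCF10A replicate 2, -0.56 without G12V replicate 1, range -0.56 to 0.55 over the left-out libraries) and DNMT1 (-0.03 and -0.12 without the same libraries, range -0.12 to 0.81), and the cause was not tested. Of 60 alternative values of 5 genes named with Nutlin-3a, 56 kept their call and 4 gained one. With 2 libraries a group, a change of 2-fold was excluded by the intervals of 33 of the 49 genes and was not excluded for the others, CBX7, HDAC9, DNMT3B and TET1 among them.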
